A study of Homo sapiens with 6 samples.

Results

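The 10 genes described here are BMP receptors (BMPR2, BMPR1A, ACVR1), the SMADs that these receptors activate (SMAD1, SMAD5), the ligand gene BMP4 and the ID genes (ID1, ID2, ID3, ID4), chosen by name out of 58735 gene rows, and each name was found in 1 row. RNA-seq was made from T24, an established human cell line of bladder urothelial carcinoma origin, labelled wild type. The TGF-b1 group has 3 libraries, from cells given 10 ng/ml TGF-β1 over 48 h. The control group has 3 libraries from cells without it, and both groups grew with 10% fetal bovine serum. Whether replicates are separate cultures is not in the labels. The p-values therefore measure only how these samples spread, which may be technical, and T24 is a single line.

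Bone morphogenetic proteins (BMPs) are secreted ligands of the TGF-β superfamily. They bring together type II and type I receptor kinases, the type I kinase phosphorylates SMAD1 and SMAD5, and these enter the nucleus with SMAD4 and switch on targets among which the ID genes are the best known. ID proteins are helix-loop-helix proteins without a DNA-binding region and act by holding E proteins away from DNA. TGF-β1 itself signals mainly through its own receptors to SMAD2 and SMAD3, and in some epithelial cells it is known to lower ID gene expression.

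The sequences just upstream of the annotated starts are shown for the receptor gene that passed the test (BMPR2), for a type I receptor gene whose groups did not overlap (ACVR1) and for the most abundant ID gene (ID1). They are from RefSeq on GRCh38.p14, 5′ to 3′ on the gene's strand, and end at the base before the RefSeq start. Capitals mark GGCGCC, a GC-rich element bound by BMP-activated SMADs, and GTCT or its reverse complement AGAC, the core SMAD-binding letters, searched on both strands. In BMPR2, 2 AGAC matches adjoin and appear as 1 run of capitals.
BMPR2, chr2:202376077-202376326, plus strand: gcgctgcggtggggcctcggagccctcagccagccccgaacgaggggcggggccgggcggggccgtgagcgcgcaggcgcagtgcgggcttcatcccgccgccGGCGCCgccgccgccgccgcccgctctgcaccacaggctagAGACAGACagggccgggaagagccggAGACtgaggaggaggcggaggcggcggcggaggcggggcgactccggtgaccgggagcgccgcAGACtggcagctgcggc
ACVR1, chr2:157876331-157876580, minus strand: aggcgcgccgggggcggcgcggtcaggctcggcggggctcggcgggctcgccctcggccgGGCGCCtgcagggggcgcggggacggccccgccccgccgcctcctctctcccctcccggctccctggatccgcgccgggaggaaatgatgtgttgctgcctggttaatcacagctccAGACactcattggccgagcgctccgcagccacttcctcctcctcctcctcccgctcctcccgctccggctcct
ID1, chr20:31605039-31605288, plus strand: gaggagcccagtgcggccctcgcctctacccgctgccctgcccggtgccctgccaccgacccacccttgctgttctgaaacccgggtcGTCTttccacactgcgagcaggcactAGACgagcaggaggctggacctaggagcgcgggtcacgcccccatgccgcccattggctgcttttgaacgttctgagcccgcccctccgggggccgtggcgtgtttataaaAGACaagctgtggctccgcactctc

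GGCGCC was found at 147 bases before the start in BMPR2 and at 190 bases in ACVR1, once in each, and in 16.4% of 35116 promoters of this length. GTCT or AGAC was found 4 times in BMPR2, 1 time in ACVR1 and 3 times in ID1, and at least once in 77.5% of promoters. The joint element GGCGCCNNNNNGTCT was in 0.0769% of promoters and in none of the 10 windows. GC content of the windows was 79.2% for BMPR2, 75.2% for ACVR1 and 66.0% for ID1, against a median of 58.0% over all promoters. The RefSeq start of BMPR2 lies 609 bases before the start in GENCODE release 29, the annotation used for the values here, and that of ACVR1 lies 468 bases before it. Among the windows not printed, that of BMP4 also held the GC-rich element once, at 232 bases before the start. The TGF-b1 libraries of BMP4 all lay below the controls. The window of BMPR1A held neither the GC-rich element nor the core letters, and its TGF-b1 libraries all lay above the controls. Its RefSeq start lies 838 bases before its GENCODE start, while that of BMP4 lies after its GENCODE start, inside the gene. Whether the matches bear on the changes was not tested. A match describes letters in a window, not a bound site.

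The libraries had 20703945 to 23678772 fragments on genes with a unique name. SMAD7, PMEPA1 and SKIL, known early targets of TGF-β, did not overlap between groups: SMAD7, for one, stood at 5.70 to 7.45 FPKM in TGF-b1 libraries and 2.05 to 2.65 FPKM in control libraries. FPKM scales fragments to exon length and library size, so levels can be compared between genes. Control 3 stood apart from the other control libraries. Over the 11363 genes tested its root mean square difference in log2(FPKM + 1) was 0.242 from TGF-b1 1, 0.249 from TGF-b1 2 and 0.283 from TGF-b1 3. From control 1 it was 0.279 and from control 2 it was 0.313, while controls 1 and 2 differed by 0.210. Values without it are given below for the genes tested among the 10, and for other genes where a call changes. A change also ran with base composition: with tested genes in 5 bins of GC content, the median log2 change was 0.16 in the lowest bin and -0.22 in the highest. Of the urothelial markers, KRT8 and KRT18 were abundant (188 and 227 FPKM in TGF-b1 libraries, 222 and 322 FPKM in control libraries), while KRT5, KRT19 and UPK3A were listed at 0, and CDH1, EPCAM and GATA3 were below 1 FPKM. None of 15 fibroblast, endothelial and leukocyte markers reached a mean of 1 FPKM.

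BMPR2 rose with TGF-b1, and it was the only 1 of the 9 genes tested that passed the threshold over all genes. Across all 11363 genes tested by limma on log2(FPKM + 1), 277 passed an adjusted p of 0.05, or 2.44%, with 1.14% higher and 1.29% lower. At an unadjusted p of 0.05 it was 3 of the 9 genes, against 25.1% of all genes. Without control 3 it was 4 of the 9 genes, against 44.7%, and the same number passed when adjusted, against 29.6% of all genes (12.8% higher and 16.8% lower). Among the 10 genes, 3 had TGF-b1 libraries all above the controls (BMPR2, BMPR1A, ACVR1), 1 had them all below (BMP4) and 6 overlapped. Of all genes tested, 14.6% lay wholly above and 12.5% wholly below, 27.1% in all. The 3 genes wholly above were all tested, but BMP4 was below the level tested and is not among the genes behind these shares. The median log2 change was 0.21 over the 9 genes and 0.01 over all genes tested. In bulk RNA a change in the share of cells that carry a transcript and a change in its amount per cell cannot be told apart.

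**Figure D1:**
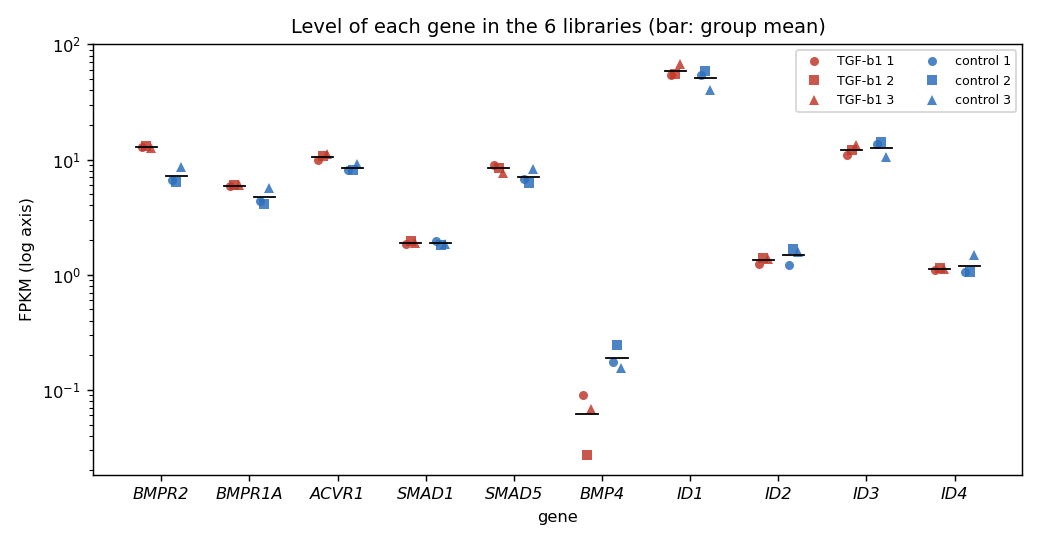
FPKM (log axis) of the 10 genes in each library, with TGF-b1 libraries in red on the left and control libraries in blue on the right of each gene, marker shapes for replicate numbers and bars for group means. BMPR2 is separated between groups, ID1 is the most abundant and BMP4 lies below 0.25 FPKM in every library.

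BMPR2 encodes the type II receptor that is selective for BMPs. It stood at 12.9, 13.1 and 12.6 FPKM in TGF-b1 libraries, against 6.67, 6.35 and 8.56 FPKM in control libraries. All TGF-b1 libraries were above every control library, and control 3 was the highest control. The means were 12.9 ± 0.257 and 7.196 ± 1.19 FPKM (SD, n = 3 each), a ratio of 1.79, resting on 1711 to 3738 fragments per library. On the log2(FPKM + 1) scale, which understates changes of low genes, the change was 0.77 (SE 0.11, 95% interval 0.53 to 1.01, adjusted p = 0.0039). Without control 3 it was 0.88 (adjusted p = 0.0022). BMPR2 is long and AT-rich, with 11900 bases of exon and 37.6% GC, and the median change of the 688 genes tested in the same bin of GC and length was 0.18. With a trend in GC content and length removed from each library, its change was 0.58 (SE 0.06, adjusted p = 0.0013). The call was lost when genes of any level were tested (adjusted p = 0.13), and the cause of this was not tested.

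The gene lies on chromosome 2 at 202376936 to 202567751 of GRCh38. Within it lie the pseudogenes AC073410.1 and AC073410.2, which had at most 5 and 7 fragments in a TGF-b1 library and 0 in control libraries. BMPR2 also took a larger share of the type II receptors that BMPs can use. It made up 87.0 ± 0.632% of the summed FPKM of BMPR2, ACVR2A and ACVR2B in TGF-b1 libraries and 80.03 ± 1.39% in control libraries (SD, n = 3 each), and the groups did not overlap. This percentage contains the rise of BMPR2 itself, and no like value over all genes was computed. The sum itself was 14.8 ± 0.327 FPKM in TGF-b1 libraries and 8.98 ± 1.32 FPKM in control libraries. ACVR2A, an activin receptor that also binds BMPs, was at 1.22 and 0.9753 FPKM in TGF-b1 and control libraries (adjusted p = 0.30), and ACVR2B, at 0.708 and 0.805 FPKM, was below the level tested.

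BMPR1A and ACVR1 encode type I receptors, the kinases that phosphorylate SMAD1 and SMAD5. BMPR1A was at 5.88, 5.99 and 5.98 FPKM in TGF-b1 libraries, against 4.34, 4.09 and 5.72 FPKM in control libraries. The groups did not overlap, but control 3 lay close to the TGF-b1 libraries. The change of 0.29 on the log2 scale (SE 0.11, 95% interval 0.04 to 0.54) did not pass (adjusted p = 0.15). Without control 3 it was 0.41 (adjusted p = 0.011). With the GC and length trend removed it was 0.14 (adjusted p = 0.28). Its processed copies BMPR1AP1 and BMPR1AP2 had at most 3 fragments in a library.

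ACVR1 was at 9.93, 10.7 and 11.2 FPKM in TGF-b1 libraries, against 8.10, 8.15 and 9.22 FPKM in control libraries, with no overlap. Its change of 0.29 (SE 0.09, 95% interval 0.09 to 0.50) did not pass either (adjusted p = 0.11), and it did without control 3, at 0.35 (adjusted p = 0.019). With the trend removed it was 0.23 (adjusted p = 0.072). Summed, the type I receptors stood at 16.6 ± 0.686 FPKM in TGF-b1 libraries and 13.2 ± 1.502 FPKM in control libraries, and ACVR1 made up 64.0 ± 1.18% and 64.5 ± 2.50% of that sum (SD, n = 3 each).

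The ratio of group means, TGF-b1 over control, was larger for BMPR2 (1.79) than for BMPR1A (1.26) and ACVR1 (1.25). BMPR2 over BMPR1A was 2.20, 2.19 and 2.11 in TGF-b1 libraries, against 1.54, 1.55 and 1.497 in control libraries. This ratio was steady within each group, control 3 included. BMPR2 over ACVR1 was 1.22 ± 0.0877 in TGF-b1 libraries and 0.844 ± 0.0765 in control libraries (SD, n = 3 each), also without overlap. The share of all genes without overlap in their ratio to ACVR1 was not computed. Of 11362 other genes, 1.28% had a ratio to BMPR1A wholly above the controls and 31.6% wholly below. An exact two-sided permutation test gave p = 0.1 for each of these BMPR2 ratios, the smallest that 3 against 3 allows, and 0.17 adjusted over the 5 ratios computed. ACVR1 over BMPR1A was 1.78 ± 0.0906 in TGF-b1 libraries and 1.82 ± 0.194 in control libraries (SD, n = 3 each), with overlap. The same permutation test gave p = 0.9 for it, also 0.9 adjusted. All 5 ratios were chosen after the values were seen.

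SMAD1 and SMAD5 encode closely related transcription factors that carry the BMP signal. SMAD5 was the more abundant, at 8.93, 8.47 and 7.70 FPKM in TGF-b1 libraries, against 6.82, 6.21 and 8.29 FPKM in control libraries. Control 3 lay among the TGF-b1 libraries and the groups overlapped. The change was 0.21 (SE 0.11, 95% interval -0.03 to 0.46, adjusted p = 0.24). Without control 3 it was 0.32 and passed (adjusted p = 0.034). Removing the trend in GC and length left 0.03 (adjusted p = 0.85).

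SMAD1 held nearly the same level throughout, at 1.84, 1.97 and 1.88 FPKM in TGF-b1 libraries, against 1.96, 1.81 and 1.86 FPKM in control libraries. The interval of its change ran from -0.19 to 0.21 (log2 change 0.01, adjusted p = 0.95). Without control 3 the change was 0.0054 (adjusted p = 0.97). With the trend removed it was -0.14 (adjusted p = 0.39). SMAD5 over SMAD1 was 4.42 ± 0.401 in TGF-b1 libraries and 3.79 ± 0.583 in control libraries, with overlap (exact permutation p = 0.3, 0.38 adjusted over the 5 ratios). The antisense genes SMAD1-AS1 and SMAD1-AS2 were listed at 0 in every library, and SMAD5-AS1 had a mean of 0.0155 FPKM in TGF-b1 and 0.00794 FPKM in control libraries.

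BMP4, the ligand gene among the 10, was scarce. It had 6, 2 and 5 fragments in TGF-b1 libraries, against 12, 17 and 11 fragments in control libraries. These are 0.0909, 0.0271 and 0.0683 FPKM in TGF-b1 libraries and 0.174, 0.244 and 0.154 FPKM in control libraries, so the groups did not overlap. Summed over libraries there were 13 fragments with TGF-b1 (exact 95% Poisson interval 6.92 to 22.2) and 40 in controls (28.6 to 54.5); these intervals cover counting error only. BMP4 was below the level tested. An exact two-sided permutation test of its FPKM gave p = 0.1, the smallest that 3 against 3 allows, and in the test of genes of any level its change was -0.16 (adjusted p = 0.46).

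**Figure D2:**
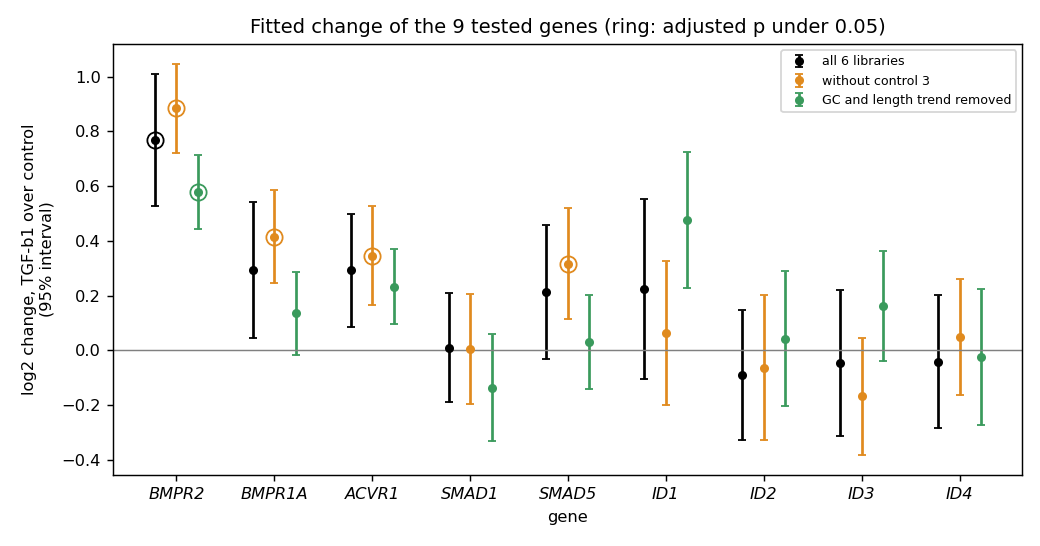
Log2 change (log2(FPKM + 1) scale) of TGF-b1 over control with 95% intervals for the 9 genes tested, with all 6 libraries in black, without control 3 in orange, and after removal of the trend in GC and length in green; rings mark an adjusted p under 0.05. BMPR2 is ringed in all 3 settings, while BMPR1A, ACVR1 and SMAD5 are ringed only without control 3.

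None of the 4 ID genes passed, against 2.44% of all genes tested. At an unadjusted p of 0.05 by limma it was 0 of them, against 25.1% of all genes. By limma-voom on the recovered fragments 0 passed, while 346 genes rose and 585 fell in all. With 4 genes, counts of 0 are not set apart from these shares. ID1 was the most abundant of the 10 genes in every library, at 53.9, 55.3 and 68.2 FPKM in TGF-b1 libraries, against 54.2, 58.3 and 40.0 FPKM in control libraries. The groups overlapped, with TGF-b1 3 the highest and control 3 the lowest. The change was 0.22 (SE 0.15, 95% interval -0.11 to 0.55, adjusted p = 0.35). It depended on control 3, without which it was 0.06 (adjusted p = 0.68), and on base composition: ID1 has 58.6% GC and a short exon length of 1233 bases, genes in the same bin of GC and length had a median change of -0.30, and with the trend removed its change was 0.47 (SE 0.11, adjusted p = 0.051).

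ID3 was at 11.05, 12.2 and 13.4 FPKM in TGF-b1 libraries, against 13.6, 14.1 and 10.5 FPKM in control libraries. The groups overlapped, and control 3 was again the lowest. The change was -0.05 (95% interval -0.31 to 0.22, adjusted p = 0.83); it was -0.17 without control 3 (adjusted p = 0.19) and 0.16 with the trend removed (adjusted p = 0.33), so its sign is not settled by these libraries.

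ID2 and ID4 were low. ID2 was at 1.23, 1.40 and 1.37 FPKM in TGF-b1 libraries, against 1.22, 1.68 and 1.57 FPKM in control libraries (log2 change -0.09, 95% interval -0.33 to 0.15, adjusted p = 0.61; -0.06 and adjusted p = 0.68 without control 3). ID4 was at 1.096, 1.14 and 1.13 FPKM in TGF-b1 libraries, against 1.05, 1.06 and 1.48 FPKM in control libraries (log2 change -0.04, 95% interval -0.28 to 0.20, adjusted p = 0.83; 0.05 and adjusted p = 0.70 without control 3). Both overlapped between groups, and the ID4 value of control 3 was the highest of the 6. They rest on 55 to 84 fragments per library, so a small change was not detectable at this depth.

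ID1 and ID3 made up nearly all ID transcripts. ID1 was 80.1 ± 1.05% of the summed FPKM of the 4 genes in TGF-b1 libraries and 76.6 ± 1.60% in control libraries, and ID3 was 16.6 ± 0.739% and 19.2 ± 0.435% (SD, n = 3 each). ID3 over ID1 was 0.205, 0.220 and 0.197 in TGF-b1 libraries, against 0.250, 0.241 and 0.262 in control libraries. These groups did not overlap although ID1 and ID3 each did, but 29.1% of the 11362 other genes also had a ratio to ID1 that was wholly below the controls. The exact permutation test of the ratio gave p = 0.1, the smallest it allows, and 0.17 adjusted over the 5 ratios. The summed FPKM of the ID genes was 73.8 ± 9.02 in TGF-b1 libraries and 66.2 ± 11.3 in control libraries, with overlap.

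**Figure D3:**
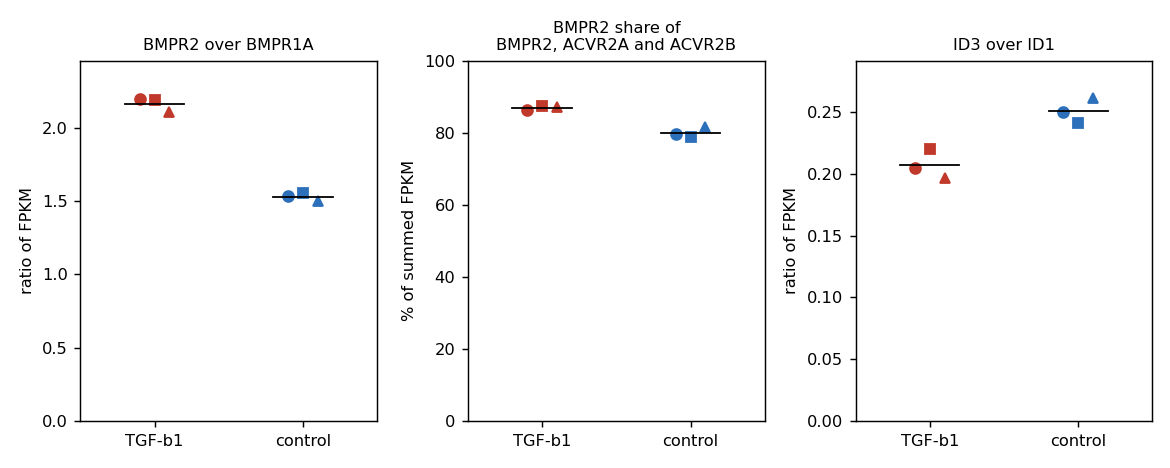
Ratio of BMPR2 to BMPR1A, share of BMPR2 in the summed FPKM of 3 type II receptor genes (%), and ratio of ID3 to ID1, per library, with TGF-b1 on the left and control on the right of each panel; shapes mark replicate numbers as in the plot of levels, bars are group means and axes start at 0. In each panel the groups do not overlap.

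By level, the order in control libraries was ID1, ID3, ACVR1, BMPR2, SMAD5, BMPR1A, SMAD1, ID2, ID4 and BMP4. In TGF-b1 libraries BMPR2 came between ID1 and ID3 by its mean, and the other places were kept. Neighbours whose ranges overlapped were BMPR2 with ID3 and ID3 with ACVR1 in TGF-b1 libraries, and ACVR1 with BMPR2, BMPR2 with SMAD5 and ID2 with ID4 in control libraries. In single TGF-b1 libraries BMPR2 exceeded ACVR1 in each, and in single control libraries ACVR1 exceeded BMPR2 in each.

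Control 3 was the highest or the lowest control for 8 of the 10 genes, against 83.8% of all genes tested. The 8 genes include BMP4, which was below the level tested and is not among the genes behind that share. For 6 of the 9 genes tested it was displaced from the other controls in the direction of the TGF-b1 libraries, against 84.5% of all genes tested. For SMAD5 the displacement was 0.31 on the log2(FPKM + 1) scale, beside 0.32 for the TGF-b1 mean, and for BMPR1A it was 0.37 beside 0.41. For BMPR2 it was 0.35 beside 0.88. ID1 went the other way, with control 3 at -0.48 and the TGF-b1 mean at 0.06.

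**Figure D4:**
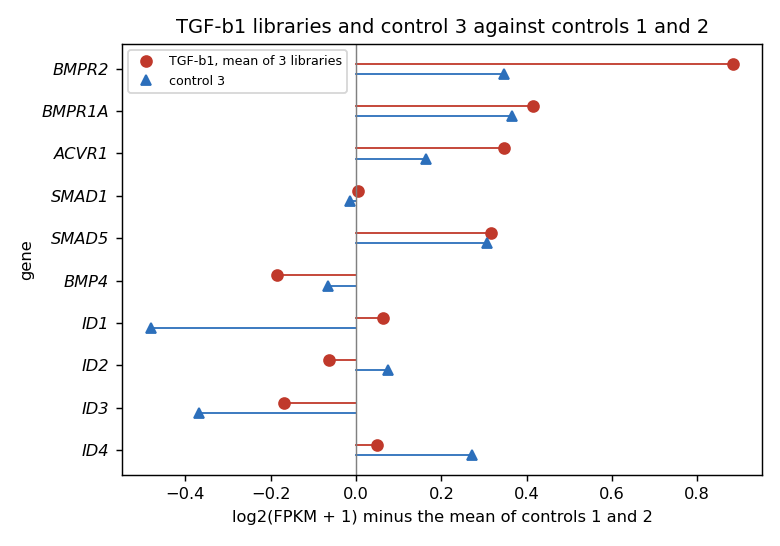
Difference in log2(FPKM + 1) from the mean of controls 1 and 2, for the mean of the TGF-b1 libraries (red circles) and for control 3 (blue triangles), by gene. For SMAD5 and BMPR1A control 3 lies near the TGF-b1 mean, for BMPR2 it lies at 0.35 against 0.88, and for ID1 it lies on the other side of 0.

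The rest of the pathway was read from 6 lists with 72 genes in all, of which 34 reached the level tested. Of the 25 that are not among the 10 genes, 1 rose and 0 fell by limma, with a median log2 change of 0.07. Over all genes tested 1.14% rose and 1.29% fell. Without control 3, where KLF4 was not tested, 5 rose and 3 fell, against 12.8% and 16.8% of all genes tested there. Of 13 BMP ligand genes only BMP6 and BMP8B were tested. BMP6, a ligand also known from iron control, was at 8.36 ± 0.997 FPKM in TGF-b1 and 9.07 ± 0.520 FPKM in control libraries (adjusted p = 0.50), and BMP8B was at 1.92 and 1.95 FPKM (adjusted p = 0.95).

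Among 7 receptors and co-receptors tested BMPR2 rose and 0 fell. ENG, which encodes the co-receptor endoglin, was at 31.7 ± 1.58 FPKM in TGF-b1 and 37.1 ± 2.48 FPKM in control libraries (log2 change -0.22, adjusted p = 0.18; 0.035 and lower without control 3). After removal of the trend the sign of the ENG change turned (0.03, adjusted p = 0.79). The co-receptors RGMB and TGFBR3 were at 4.18 and 1.07 FPKM in TGF-b1 and 4.50 and 1.05 FPKM in control libraries (adjusted p = 0.56 and 0.94). BMPR1B and ACVRL1, other type I receptor genes, were below the level tested.

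Of 9 SMADs and regulators tested 1 rose, SMAD7, the inhibitory SMAD, with a log2 change of 1.14 (SE 0.12, adjusted p = 0.00055). SMAD6, the inhibitory SMAD that acts mainly on BMP signals, was at 0.326 and 0.221 FPKM in TGF-b1 and control libraries, with overlap and below the level tested. SMURF1 and SMURF2, ubiquitin ligases that mark SMADs and receptors, were at 17.9 and 46.4 FPKM in TGF-b1 and 14.8 and 38.3 FPKM in control libraries (adjusted p = 0.14 and 0.16, and 0.019 for each without control 3). After removal of the trend their changes were 0.29 for SMURF1 and 0.12 for SMURF2 (adjusted p = 0.069 and 0.34). FKBP1A, which binds type I receptors and keeps them silent, was at 578 FPKM in TGF-b1 and 495 FPKM in control libraries (adjusted p = 0.27). Over this list the median change was 0.21.

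None of 4 antagonists tested passed by limma, and 2 were under an unadjusted p of 0.05 (TWSG1 and NBL1), against 25.1% of all genes tested. TWSG1, a secreted modulator of BMPs, was at 33.7 ± 2.60 FPKM in TGF-b1 and 24.1 ± 3.39 FPKM in control libraries (log2 change 0.47, adjusted p = 0.056), and it passed without control 3 (adjusted p = 0.0075). It also passed after removal of the trend (log2 change 0.30, adjusted p = 0.033). NBL1, a secreted antagonist, was at 11.5 ± 1.89 FPKM in TGF-b1 and 16.1 ± 3.94 FPKM in control libraries (log2 change -0.43, adjusted p = 0.19; 0.014 and lower without control 3). After removal of the trend the NBL1 change was -0.14 (adjusted p = 0.42). NOG, which encodes noggin, was at 9.71 and 8.60 FPKM (adjusted p = 0.40), and FSTL1 was at 4.95 and 4.69 FPKM (adjusted p = 0.72).

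Neither E protein gene tested passed: TCF12 was at 6.10 and 4.60 FPKM in TGF-b1 and control libraries (adjusted p = 0.096, 0.0098 without control 3 and 0.11 after removal of the trend), and TCF3 at 33.6 and 34.4 FPKM (adjusted p = 0.87). Of 6 other BMP-induced genes tested 0 rose and 0 fell by limma. Of these, 2 were under an unadjusted p of 0.05 (KLF4 and DLX2), against 25.1% of all genes tested. KLF4 reached 1 FPKM only in control libraries, so it was tested only because these were high. Its p-value is therefore no independent evidence of a fall. Without control 3, 0 rose and 1 fell, MSX2 (log2 change -0.27, adjusted p = 0.041). KLF4 was not tested there, since too few libraries reached 1 FPKM. KLF4 was at 0.884 and 1.39 FPKM in TGF-b1 and control libraries (adjusted p = 0.093), the homeobox gene DLX2 at 2.42 and 1.78 FPKM (adjusted p = 0.15, and 0.021 after removal of the trend), MSX2 at 2.48 and 3.02 FPKM (adjusted p = 0.22, and 0.24 after removal of the trend) and HES1 at 15.0 and 17.04 FPKM (adjusted p = 0.32). The median change of that list was -0.16.

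**Figure D5:**
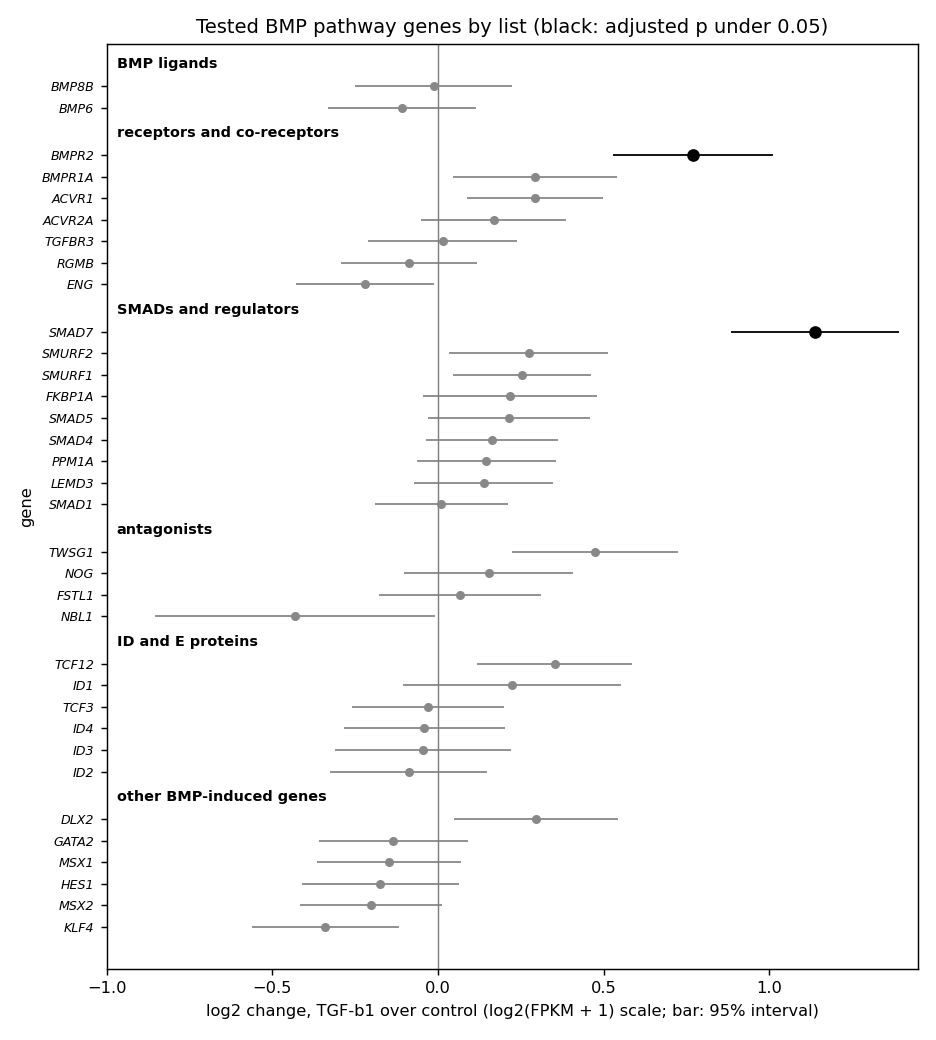
Log2 change (log2(FPKM + 1) scale) of TGF-b1 over control with 95% intervals for the tested genes of 6 BMP pathway lists; black marks an adjusted p under 0.05. BMPR2 at 0.77 and SMAD7 at 1.14 are the black points, and no gene of the other 4 lists is black.

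Among the genes whose profile over the 6 libraries was most like that of BMPR2, by the root mean square difference of centred log2(FPKM + 1), were CDH2 (0.0510), MN1 (0.0565), PGM2L1 (0.0599) and ANO6 (0.0657). CDH2, which encodes N-cadherin, was at 8.91, 9.53 and 9.74 FPKM in TGF-b1 libraries, against 4.50, 4.48 and 5.91 FPKM in control libraries. Those most like ID1 were Z83840.1 (0.0630), SS18L2 (0.0744), AVEN (0.0755), TSPAN33 (0.0849) and FHL3 (0.0911). AVEN, an apoptosis inhibitor, was at 3.51, 3.32 and 3.94 FPKM in TGF-b1 libraries, against 3.51, 3.45 and 2.35 FPKM in control libraries. These genes were picked by likeness over all 6 libraries, control 3 included. Their likeness to BMPR2 or ID1 in control 3 follows from that choice.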

How the data were processed

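Total RNA of 6 libraries was sequenced as 150 bp read pairs, per the labels' protocols. HISAT2 2.0.5, featureCounts 1.5.0-p3 and build hg38 were used, per the submitters' processing notes; their annotation and strand setting: not given in the sources used here. The authors deposited FPKM per gene symbol, and 11 rows of mapping totals were left out.

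Exon lengths of GENCODE release 29 were matched by symbol to 56923 rows. They turned 100.0% of values under 1000 fragments into whole fragments, to within 0.05. The chi-square per degree of freedom between libraries of a group was 6.50 to 28.9, so none was a duplicate.

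The test was limma 3.58.1 (R 4.3.3) with trend and robust estimation on log2(FPKM + 1), over genes that reached 1 FPKM in 3 or more libraries, with treatment as the only term, Benjamini-Hochberg adjustment over all genes and a threshold of 0.05. It was tested on simulated data. The GC and length trend was a loess surface per library (span 0.5).

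The 10 genes and the lists were chosen with earlier results of these data known. Beside the 10 genes, up to 4 of each list are named, called genes before others, larger changes before smaller. For BMPR2 and ID1 the 5 most similar profiles were found, of which 1 is not reported here. SMAD7, PMEPA1, SKIL and overlapping genes are named too. ACVR2B, BMPR1B, ACVRL1, SMAD6 and the copies of BMPR1A were chosen after their values were seen. Alternatives were a pseudocount of 0.1, other filters and scalings, voom, the replicate number as a block and leaving out each library.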

Additional observations from a re-analysis of the deposited data

How the results depend on the processing

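BMPR2 kept its direction in all 15 alternatives (0.58 to 0.88) and was called in all but that without a filter. There 0 of the 10 genes passed and over all genes 11 rose and 4 fell by limma. The BMPR2 change there is as in the full test (0.77, adjusted p = 0.13), and the cause of the lost call was not tested. Leaving out 1 library gave 1 to 4 of the 10 genes higher, 2 to 9 genes higher and 0 to 3 lower over the 6 lists, and 72 to 1435 genes higher and 39 to 1872 lower in all. The highest of each came without control 3 (1435 and 1872). Over all genes it was 84 higher and 39 lower without control 1, 73 lower without control 2, 241 lower without TGF-b1 1, 72 and 79 without TGF-b1 2, and 73 and 71 without TGF-b1 3.

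Over all genes, 321 fell at a minimum of 5 FPKM, 221 fell when scaled to total fragments, 346 rose and 585 fell by voom, and 295 rose and 184 fell with the GC and length trend removed. With the replicate number as a block 249 rose and 518 fell, BMPR2 was called (adjusted p = 0.012), no call among the 10 genes changed, and 3 genes of the pathway lists rose. Deviations of same-numbered libraries correlated at 0.25, -0.07 and 0.17, so the numbers were not taken to pair the samples; not every library matched its own number.

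Among the 10 genes, signs turned for SMAD1, ID2, ID3 and ID4, all at changes within 0.1 of 0 in the full test. SMAD1 was -0.14 with the trend removed, -0.0068 without control 2 and -0.0080 without TGF-b1 2. ID2 was 0.043 and ID3 0.16 with the trend removed. Of the list genes, ENG was 0.03, MSX1 0.10, GATA2 0.06 and PPM1A -0.06 with the trend removed, against -0.22, -0.15, -0.14 and 0.15 in the full test. Signs also turned there for BMP6 (0.03), BMP8B (0.11), TCF3 (0.15), FSTL1 (-0.03) and TGFBR3 (-0.09). ID3 was 0.0038 without control 1, 0.028 without control 2 and 0.019 without TGF-b1 1, and ID4 was 0.048 without control 3. Leaving out 1 library gave -0.0080 to 0.031 for SMAD1, -0.17 to 0.028 for ID3 and -0.089 to 0.048 for ID4. The cause was not tested. BMP4, ID2 and ID4 are limited by depth.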
